A study of Mus musculus with 6 samples.

Results

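Both hairpins aimed at Prmt6 were set directly against each other: PRMT6_shRNA2 on 2 arrays and PRMT6_shRNA1 on 2 arrays, out of 6 arrays in the series. The other 2 arrays carried RNA from cells with GFP_shRNA, a hairpin against green fluorescent protein, and serve here for the shared estimate of the spread and as a level to compare with. All 3 groups were CCE cells, a mouse embryonic stem cell line kept without feeder cells in serum and leukemia inhibitory factor. In every group a pSuper.puro plasmid carried the hairpin into the cells by Lipofectamine, and puromycin at 1.5 µg/ml, added 18 h later, was kept on for 4 days. Labelled cRNA was hybridised to Illumina mouse bead arrays. The comparison covered the probes of the lower ID series (below 100000000), referred to as first-series probes, with a detection score above 0.99 on both arrays of at least 1 of the Prmt6 hairpins. This gave 5281 of 46643 probes and 4454 gene symbols. The labels do not say whether the 2 arrays of a group came from separate cultures, so the p-values measure the spread between these samples.

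Prmt6 encodes an arginine methyltransferase that places asymmetric dimethyl marks, among others on arginine 2 of histone H3, a mark that opposes methylation of the neighbouring lysine 4. An shRNA is processed into a small RNA that leads to degradation of transcripts matching it, and 2 hairpins against one transcript share the target but not the rest of their sequence. Among the genes below, keratins of simple epithelia form intermediate filaments that appear early in the trophectoderm, the outer layer of the blastocyst. Many genes of the actin cytoskeleton are transcribed by serum response factor (SRF), which binds a sequence called the CArG box. Replication-dependent histone genes are expressed in S phase, and their transcripts typically end in a stem-loop instead of a poly(A) tail.

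First-series probes detected per array numbered 5700 and 4847 with PRMT6_shRNA2, 5067 and 8092 with PRMT6_shRNA1, and 6766 and 4826 with GFP_shRNA. With 2 arrays a group, precision is low for any single probe. Across the 5281 probes the replicates correlated with r = 0.966 for PRMT6_shRNA2 and 0.967 for PRMT6_shRNA1, and PRMT6_shRNA2 replicate 1 correlated with PRMT6_shRNA1 replicate 1 about as closely, with r = 0.964 (probes are not independent replicates). PRMT6_shRNA2 replicate 2 stood apart: 48 probes lay more than 2 log2 units below replicate 1 of the same hairpin and 0 that far above it, whereas 3 probes differed by that much between the PRMT6_shRNA1 arrays and 2 between the GFP_shRNA arrays. One Hprt probe gave 10.06 and 6.05 log2 units with PRMT6_shRNA2, against 10.58 and 10.73 with PRMT6_shRNA1.

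The targeted transcript was low with both hairpins, and a difference between them was not detectable. The brighter Prmt6 probe had intensities of 97.8 and -21.6 with PRMT6_shRNA2, against 48.3 and 147.6 with PRMT6_shRNA1, where GFP_shRNA gave 389.8 and 266.1. The dimmer probe gave 75.9 and 23.9 with PRMT6_shRNA2, against 37.3 and 107.5 with PRMT6_shRNA1, and 276.6 and 210.9 with GFP_shRNA. The hairpins overlapped on both probes, and all 4 of their arrays lay below both GFP_shRNA arrays. Neither probe was detected on a PRMT6_shRNA2 array, and each was detected on 1 PRMT6_shRNA1 array. Both belong to the higher ID series and so fall outside the 5281 probes. Fewest probes of that series were detected on PRMT6_shRNA2 replicate 2, 935 against 1695 on replicate 1. The counts were 1302 and 2836 with PRMT6_shRNA1, and 2268 and 1618 with GFP_shRNA. The part of this low detection in the Prmt6 values of PRMT6_shRNA2 replicate 2 was not tested. With both series normalised together the brighter probe differed by -0.78 ± 0.43 on the log2 scale (PRMT6_shRNA2 minus PRMT6_shRNA1, limma adjusted p = 0.448) and the dimmer one by -0.43 ± 0.30 (adjusted p = 0.49).

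With PRMT6_shRNA2 the simple keratins Krt7, Krt8 and Krt18 were lower, as were 8 of 18 measured actin and tropomyosin genes. Of those 8, Acta1, Tpm2 and Myl9 entered the comparison only through detection with PRMT6_shRNA1. Of 29 histone probes, grouped after their values were seen, 15 were higher with PRMT6_shRNA2. Of the 5281 probes, 171 were called different, that is 3.24% of those tested, at a Benjamini-Hochberg adjusted p under 0.05 in limma. The called probes were 70 higher with PRMT6_shRNA2 (1.33% of those tested) and 101 lower (1.91%). They stood for 68 and 99 symbols. Of the 171, 111 differed at least 2-fold, and at least 4-fold differences numbered 5 higher and 14 lower. All 171 had both PRMT6_shRNA2 arrays on one side of both PRMT6_shRNA1 arrays, but so did 50.4% of all 5281 probes, 28.7% above and 21.7% below. An unadjusted p under 0.05 was reached by 1071 probes (20.3%). The median log2 difference over all 5281 probes was 0.05. Differences here are PRMT6_shRNA2 minus PRMT6_shRNA1 on the log2 scale of normalised intensity, followed by the limma standard error.

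The number of calls rested on single arrays. It was 14 without PRMT6_shRNA2 replicate 2, 133 without PRMT6_shRNA2 replicate 1, 51 without PRMT6_shRNA1 replicate 1, 79 without PRMT6_shRNA1 replicate 2 and 45 without either GFP_shRNA array. Each such fit has fewer residual degrees of freedom, and all 171 differences kept their sign in these fits. Without PRMT6_shRNA2 replicate 1 the probes called higher fell to 23.

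**Figure D1:**
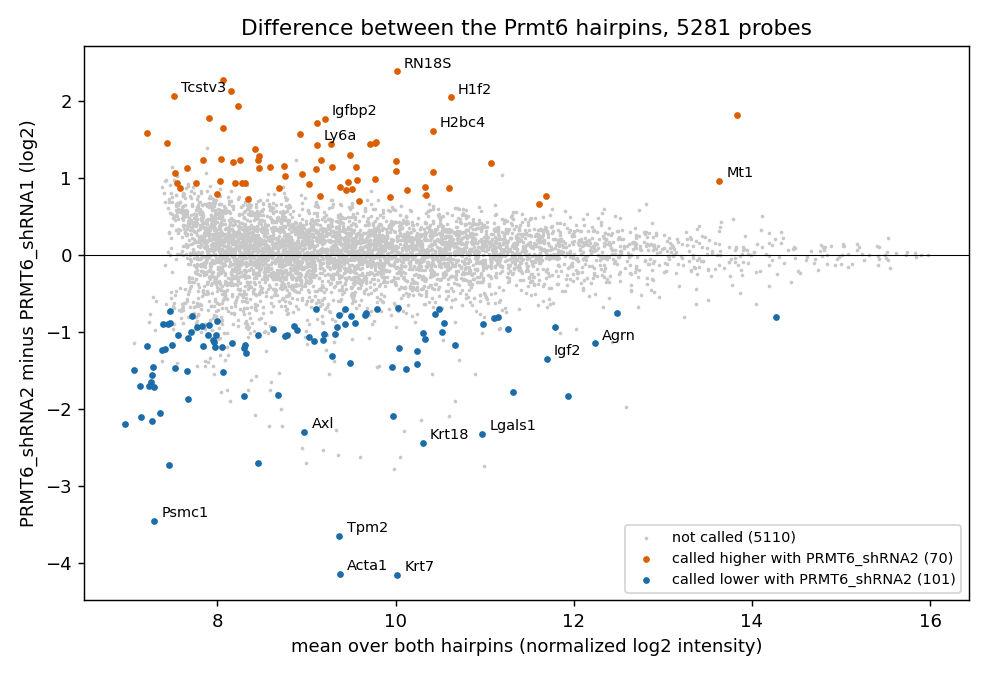
Log2 difference between the hairpins (vertical axis, PRMT6_shRNA2 minus PRMT6_shRNA1) against the mean normalised log2 intensity over their 4 arrays (horizontal axis), 1 point for each of 5281 probes; orange points were called higher with PRMT6_shRNA2 (70), blue points lower (101), grey points were not called. The lowest blue points are Krt7 at -4.15 and Acta1 at -4.14, and the highest orange point is RN18S at 2.38.

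Keratins of simple epithelia were much lower with PRMT6_shRNA2. Krt7, which pairs with type I keratins in simple epithelia, had 7.78 and 8.11 log2 units with PRMT6_shRNA2, against 12.08 and 12.11 with PRMT6_shRNA1, and 7.26 and 6.49 with GFP_shRNA. This is 17.8-fold lower (-4.15 ± 0.27, limma adjusted p = 0.00308). Krt18, the type I partner of Krt8, gave 9.13 and 9.04 with PRMT6_shRNA2, against 11.69 and 11.36 with PRMT6_shRNA1, a 5.42-fold lower level (-2.44 ± 0.20, adjusted p = 0.00486). Krt8 gave 11.07 and 10.96 with PRMT6_shRNA2, against 12.999 and 12.70 with PRMT6_shRNA1, 3.57-fold lower (-1.84 ± 0.15, adjusted p = 0.00486). GFP_shRNA gave 7.50 and 7.03 for Krt18 and 9.28 and 9.18 for Krt8, so for all 3 keratins the PRMT6_shRNA2 arrays lay between the other groups. In bulk RNA, fewer cells with a transcript and less of it per cell cannot be told apart.

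Of 7 measured genes of simple keratins and desmosomes, 3 fell, 0 rose and 4 did not pass, with a median of -0.80. The desmosomal genes Pkp3 (-0.80) and Pkp2 (-0.49) lay below 0, and Jup (0.02) and Dsg2 (0.04) were near 0, none of them called. Pkp3 and Dsg2 were detected on no PRMT6_shRNA2 array. Of 6 measured trophectoderm genes, 4 fell: the same 3 keratins and Cldn4, a tight junction claudin. Cldn4 gave 10.05 and 10.11 log2 units with PRMT6_shRNA2, against 11.38 and 11.13 with PRMT6_shRNA1, and 8.61 and 8.86 with GFP_shRNA (-1.17 ± 0.15, adjusted p = 0.0189). The 2 trophectoderm genes that did not pass were transcription factors, Cdx2 at -0.35 and Tfap2c at -0.06. Among all 4650 genes, each by its brightest probe, 61 rose and 96 fell, with a median of 0.04.

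Dmkn, Eppk1, Ap1m2 and Card10 were also among the 15 largest named falls. Dmkn, a secreted protein of stratified epithelia, had 6.12 and 6.06 with PRMT6_shRNA2, where it was not detected, against 8.83 and 8.80 with PRMT6_shRNA1, or at least 2.13-fold lower (limma adjusted p = 0.000604). Where a gene is detected on no array of the dimmer hairpin, the fold is given as such a lower limit, from the lowest detected signal on each array. Eppk1, epiplakin, which binds keratin filaments, was at least 4.21-fold lower (adjusted p = 0.00406). Ap1m2, an epithelial subunit of a clathrin adaptor, was at least 1.53-fold lower (adjusted p = 0.00308), and Card10, a scaffold of NF-kB signalling, at least 1.57-fold (adjusted p = 0.00418). Chosen after its values were seen, St14, the membrane protease matriptase, was 2.42-fold lower (adjusted p = 0.0293). Krt17, a keratin of stressed and basal epithelium, went the other way: 8.94 and 9.13 with PRMT6_shRNA2, against 7.80 and 8.01 with PRMT6_shRNA1, and 7.65 and 7.77 with GFP_shRNA (1.13 ± 0.15, adjusted p = 0.0187, also chosen after its values were seen).

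Of 18 measured genes of actins, tropomyosins and their partners, 8 fell with PRMT6_shRNA2, 0 rose and 10 did not pass. The median was -0.85. Among all 4650 genes, each by its brightest probe, 96 fell and 61 rose. Acta1, Tpm2 and Myl9 were detected on 0 PRMT6_shRNA2 arrays. They entered the comparison through PRMT6_shRNA1, where they are high, so the rule partly set their direction. The other called genes of the list, Flnc, Flna, Tagln2, Tpm1 and Tpm4, were detected on all 4 Prmt6 shRNA arrays. Acta1, the skeletal muscle actin, had 7.33 and 7.28 log2 units with PRMT6_shRNA2, where it was not detected, against 11.62 and 11.26 with PRMT6_shRNA1, and 6.11 and 5.76 with GFP_shRNA. The fall was at least 13.1-fold (fitted -4.14 ± 0.18, limma adjusted p = 0.000604). Tpm2, a muscle tropomyosin, had 7.51 and 7.58 with PRMT6_shRNA2, where it was not detected either, against 11.16 and 11.22 with PRMT6_shRNA1, and 7.90 and 7.26 with GFP_shRNA, a fall of at least 11.1-fold (adjusted p = 0.00285). For Tpm2 the PRMT6_shRNA2 arrays fell within the range of the GFP_shRNA arrays.

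Flnc, the muscle filamin, which crosslinks actin, was 4.27-fold lower (-2.09 ± 0.22, adjusted p = 0.0108), with 8.95 and 8.90 for PRMT6_shRNA2, against 11.35 and 10.69 for PRMT6_shRNA1, and 8.14 and 8.17 for GFP_shRNA. Myl9, a regulatory light chain of non-muscle and smooth muscle myosin, was at least 1.38-fold lower (adjusted p = 0.00666), and its other probe also passed (at least 1.06-fold, adjusted p = 0.0183). Flna (-1.48), Tagln2 (-1.46), Tpm1 (-1.25) and Tpm4 (-0.94) were the remaining called genes of the list. Acta2, the smooth muscle actin, did not pass: it gave 10.23 and 10.02 with PRMT6_shRNA2, against 11.76 and 11.58 with PRMT6_shRNA1, and 8.93 and 7.96 with GFP_shRNA (-1.54 ± 0.31, adjusted p = 0.0614), and -0.77 on its dimmer probe. The non-muscle actin Actb was at 0.10, Tpm3 at -0.12 and the calponin Cnn3 at 0.16, none of them called.

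**Figure D2:**
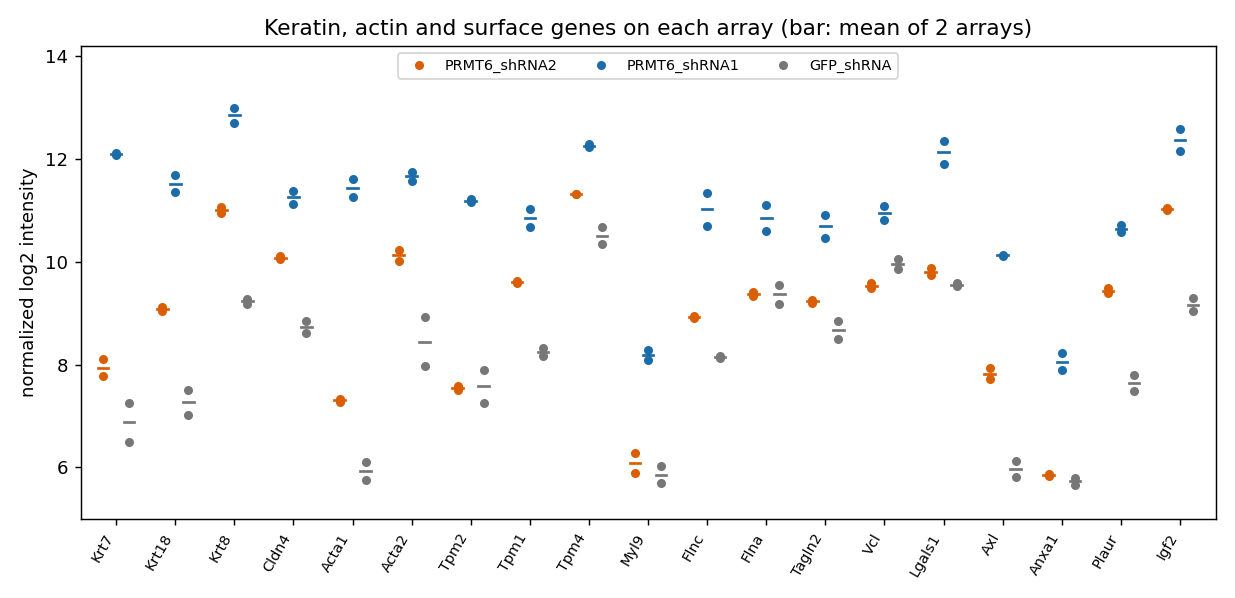
Normalised log2 intensity (vertical axis) of 19 keratin, junction, actin, adhesion and surface genes on each array, with a bar at the mean of the 2 arrays of PRMT6_shRNA2 (orange), PRMT6_shRNA1 (blue) and GFP_shRNA (grey). In every gene shown both PRMT6_shRNA2 points lie below both PRMT6_shRNA1 points, and for Tpm2, Flna and Lgals1 they lie close to the grey points.

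The promoter windows of called genes were searched for the CArG box because the actin list was led by known SRF targets. The motif, CC then 6 bases that are each A or T then GG, was sought on both strands in RefSeq windows of GRCm38.p6 that run from 250 bases before to 50 after a gene's start. It was found in 5 of 75 genes called lower with a window (6.67%, 95% Wilson interval 2.88 to 14.7), namely Acta1, Myl9, Vcl, Tnk1 and Zfp36, in 3 of 44 called higher (6.82%, 2.35 to 18.2), namely Gsto1, Herpud1 and H2bc22, and in 55 of all 3645 member genes with a window (1.51%). The intervals of the lower and higher genes overlapped. Of the 5 lower genes, Acta1, Myl9 and Zfp36 were detected on 0 PRMT6_shRNA2 arrays and Tnk1 on 1, so they entered the comparison through PRMT6_shRNA1, where they are high. With detection required on all 4 Prmt6 shRNA arrays the share in lower genes was 2.17%, so the 6.67% is no result about the falls. The TEAD motif GGAATG was in 18.7% of lower windows (95% Wilson interval 11.5 to 28.9), 4.55% of higher (1.26 to 15.1) and 11.1% of all. The AP-1 motif TGANTCA was in 9.33% (4.59 to 18.0), 15.9% (7.93 to 29.4) and 4.5%. For both motifs the intervals of the lower and higher genes overlapped. Of the lower genes with a TEAD match, Acta1, Anxa1, Hsd17b11 and Nppb were detected on 0 PRMT6_shRNA2 arrays and Axl on 1. These genes too entered through PRMT6_shRNA1, so the TEAD share is no result about the falls. Overlap between motifs was not removed. The 4 windows below are printed to show the match in 3 genes that fell and 1 that rose. They are chr8:123894726-123895025 on the minus strand for Acta1, chr2:156775214-156775513 on the plus strand for Myl9, chr14:20929148-20929447 on the plus strand for Vcl and chr19:47854723-47855022 on the plus strand for Gsto1, each given 5′ to 3′ along the gene with the CArG match in capitals.
Acta1: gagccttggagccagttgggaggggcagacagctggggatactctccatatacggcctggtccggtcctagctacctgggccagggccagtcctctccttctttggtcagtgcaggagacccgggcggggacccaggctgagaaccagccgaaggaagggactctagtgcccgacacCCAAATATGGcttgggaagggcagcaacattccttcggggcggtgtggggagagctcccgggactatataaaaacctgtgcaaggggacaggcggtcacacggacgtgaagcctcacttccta
Myl9: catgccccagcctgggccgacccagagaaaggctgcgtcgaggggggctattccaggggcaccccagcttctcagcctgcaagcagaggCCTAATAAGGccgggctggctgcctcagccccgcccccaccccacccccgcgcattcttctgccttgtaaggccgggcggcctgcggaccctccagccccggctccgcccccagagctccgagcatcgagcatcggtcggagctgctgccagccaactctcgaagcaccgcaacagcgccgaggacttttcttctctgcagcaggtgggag
Vcl: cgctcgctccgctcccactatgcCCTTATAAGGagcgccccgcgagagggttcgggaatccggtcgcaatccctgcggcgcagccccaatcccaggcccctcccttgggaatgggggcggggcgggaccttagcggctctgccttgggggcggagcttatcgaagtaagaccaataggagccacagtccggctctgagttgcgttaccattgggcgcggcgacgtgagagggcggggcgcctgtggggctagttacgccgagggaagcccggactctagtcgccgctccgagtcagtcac
Gsto1: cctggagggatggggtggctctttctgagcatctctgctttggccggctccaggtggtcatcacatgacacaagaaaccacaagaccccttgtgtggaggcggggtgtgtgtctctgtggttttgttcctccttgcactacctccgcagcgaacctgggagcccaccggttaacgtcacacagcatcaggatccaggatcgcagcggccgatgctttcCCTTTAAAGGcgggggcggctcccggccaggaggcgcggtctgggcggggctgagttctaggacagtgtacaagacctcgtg
The first base of the match lies at -73 from the annotated start in Acta1, -161 in Myl9, -227 in Vcl and -32 in Gsto1. A match describes the letters only.

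Among focal adhesion genes and other SRF targets, 3 of 10 measured genes fell and 0 rose, with a median of -0.33. Vcl, vinculin, which links adhesions to actin, gave 9.59 and 9.49 log2 units with PRMT6_shRNA2, against 10.82 and 11.09 with PRMT6_shRNA1, and 10.05 and 9.85 with GFP_shRNA (-1.41 ± 0.15, limma adjusted p = 0.0118). PRMT6_shRNA2 was here below GFP_shRNA as well. Tes, testin, a LIM protein of adhesions, was at -1.10 ± 0.13 (adjusted p = 0.0179), and Itga3, the integrin alpha 3 chain, at -0.76 ± 0.14 (adjusted p = 0.0446). Srf itself was at -0.37 and Zyx at -0.28, neither called.

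Secreted and surface proteins of the matrix were lower with PRMT6_shRNA2 in 7 of 16 measured genes and higher in 0, with a median of -0.30. Of these 7, Mmp9 was detected on 0 PRMT6_shRNA2 arrays and Timp3 on 1, so both entered the comparison through PRMT6_shRNA1. Timp3, an inhibitor of metalloproteinases, was 2.87-fold lower (limma adjusted p = 0.0214) on the called probe. A Timp3 probe of the higher ID series, detected on no array, did not show this fall. On the linear scale it gave 71.4 and 62.8 with PRMT6_shRNA2, against 36.5 and 38.4 with PRMT6_shRNA1. A further first-series Timp3 probe was detected on no array either. Plaur, the urokinase receptor, gave 9.39 and 9.49 with PRMT6_shRNA2, against 10.58 and 10.72 with PRMT6_shRNA1, and 7.79 and 7.49 with GFP_shRNA (-1.21 ± 0.15, adjusted p = 0.0185). Mmp9, a gelatinase, was at least 1.72-fold lower (adjusted p = 0.0203) and Fn1, fibronectin, 2.09-fold (adjusted p = 0.0446). The remaining falls were the laminin chain Lama5 (-1.05), the basement membrane linker Nid1 (-1.04) and the membrane-bound protease Mmp14 (-0.82). The basement membrane genes Col4a1 (0.15), Col4a2 (0.43) and Lamc1 (0.54) were not called.

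Outside that list, Lgals1, galectin-1, a lectin that binds cell surface glycans, was 5.003-fold lower (-2.32 ± 0.18, adjusted p = 0.00418), with 9.74 and 9.88 for PRMT6_shRNA2, against 12.36 and 11.91 for PRMT6_shRNA1, and 9.53 and 9.58 for GFP_shRNA. Axl, the receptor tyrosine kinase for Gas6, was 4.91-fold lower (-2.30 ± 0.16, adjusted p = 0.00383), with 7.73 and 7.93, against 10.13 and 10.11 with PRMT6_shRNA1, and 6.12 and 5.81 with GFP_shRNA. It was detected on 1 PRMT6_shRNA2 array and so entered the comparison through PRMT6_shRNA1. An Axl probe of the higher ID series, detected on no array, did not show this fall. On the linear scale it gave 135.3 and 130.2 with PRMT6_shRNA2, against 91.7 and 48 with PRMT6_shRNA1. Axl was the only 1 of 8 measured YAP and TEAD target or pathway genes that passed: Ccn1 was at 0.62 and Ccn2 at 0.20. Bmp1, the procollagen C-proteinase, was at least 1.84-fold lower (adjusted p = 0.00559) on the called probe. Dim Bmp1 probes outside the comparison did not show this fall. On the linear scale, 1 gave 189.8 and 171.3 with PRMT6_shRNA2, against 132.7 and 60.8 with PRMT6_shRNA1, detected on no array. Another gave 126.3 and 114.5, against 121.8 and 133.9, and was detected on 1 PRMT6_shRNA1 array. Of 10 annexin and S100 genes 2 fell and 1 rose. Anxa1, a phospholipid-binding protein, was at least 1.26-fold lower (adjusted p = 0.00404) and Anxa6 at least 1.08-fold (adjusted p = 0.0209). S100a1, a calcium sensor of muscle, was instead 2.34-fold higher (adjusted p = 0.0236). Anxa1 and Anxa6 were detected on 0 PRMT6_shRNA2 arrays and entered the comparison through PRMT6_shRNA1, where they are high. S100a1 was detected on 1 PRMT6_shRNA1 array and entered through PRMT6_shRNA2, where it is high. The detection rule thus partly set these directions, and the calls are no result about the list. Its genes detected on both arrays of both hairpins were not called.

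Of 11 imprinted genes, which are expressed from 1 parental allele, 2 fell and 0 rose on the brightest probes (median -0.38). Igf2, a fetal growth factor, gave 11.04 and 11.004 log2 units with PRMT6_shRNA2, against 12.59 and 12.16 with PRMT6_shRNA1, and 9.03 and 9.30 with GFP_shRNA (2.55-fold lower, limma adjusted p = 0.0214). Phlda2, which limits placental growth, was at least 1.23-fold lower (adjusted p = 0.0265). It was detected on 0 PRMT6_shRNA2 arrays and so entered the comparison through PRMT6_shRNA1. Impact disagreed between probes: the brightest was at 0.40 and not called, and another was called 2.35-fold higher (adjusted p = 0.0181).

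Psmc1 stood alone within its complex. The probe for this ATPase subunit of the 19S proteasome particle gave 5.58 and 5.55 log2 units with PRMT6_shRNA2, against 8.99 and 9.03 with PRMT6_shRNA1, and 5.55 and 5.65 with GFP_shRNA. It was detected with PRMT6_shRNA1 alone (at least 2.44-fold lower with PRMT6_shRNA2, limma adjusted p = 0.000451). On the linear scale it gave -19.3 and -22.8 with PRMT6_shRNA2, and -12.8 and -13.7 with GFP_shRNA. Whether the probe reports the level of the Psmc1 transcript was not tested. Of the other 27 measured proteasome genes 0 passed, and the median of all 28 was 0.01. Rpl13, a protein of the large ribosomal subunit, was the 1 called gene of 41 ribosomal protein genes (-0.81 ± 0.12, adjusted p = 0.0242). It gave 13.86 and 13.88 with PRMT6_shRNA2, against 14.70 and 14.66 with PRMT6_shRNA1, and 14.82 and 14.78 with GFP_shRNA. In this gene it was PRMT6_shRNA2 that stood away from both other groups. Ifitm3, an interferon-induced membrane protein, also had PRMT6_shRNA2 apart from the others (10.57 and 10.49 with PRMT6_shRNA2, against 11.42 and 11.44 with PRMT6_shRNA1, and 11.24 and 11.27 with GFP_shRNA, adjusted p = 0.0201) and was the 1 called gene of 7 in the interferon and double-stranded RNA list.

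Replication-dependent histone probes made up 15 of the 70 rises and 29 of all 5281 probes. Over all 5281 probes 1.33% were called higher. The 29 histone probes, grouped by their names on the array after their values were seen, included 0 that fell and had a median difference of 0.95. The classes differed in their counts: the single H1 probe rose, as did 9 of 10 H2B probes (median 1.44) and 4 of 5 H4 probes (1.14), against 1 of 7 H2A probes (-0.12) and 0 of 6 H3 probes (0.40). H1f2, a linker histone, gave 11.73 and 11.55 log2 units with PRMT6_shRNA2, against 9.54 and 9.66 with PRMT6_shRNA1, and 9.79 and 10.02 with GFP_shRNA, 4.13-fold higher (2.04 ± 0.15, limma adjusted p = 0.00404). H2bc4, a core histone H2B gene, gave 11.36 and 11.08 with PRMT6_shRNA2, against 9.59 and 9.63 with PRMT6_shRNA1, and 9.85 and 9.96 with GFP_shRNA, 3.05-fold higher (1.61 ± 0.14, adjusted p = 0.0062). All 10 H2B and 5 H4 probes had a GFP_shRNA mean between the hairpins, whereas 0 of 6 H3 probes did. For H2bc21 the margin was small, with means of 8.796 for GFP_shRNA and 8.805 for PRMT6_shRNA2, and the arrays of these groups overlapped.

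The other named H2B genes had similar differences: H2bc13 was at 1.57, H2bc7 at 1.46 and 1.46 on 2 probes, H2bc11 at 1.44, H2bc22 at 1.44 and H2bc9 at 1.42, with adjusted p from 0.00486 to 0.0179. H2bc21 (0.70, adjusted p = 0.0894) was the 1 H2B probe that did not pass. The H2A probes included the brightest of the family, at means of 8.93 to 15.2 with PRMT6_shRNA2, against 8.32 to 15.3 with PRMT6_shRNA1, and H2ac22 among them was at -0.35. Histone genes are near-identical copies, so the assignment of a probe to 1 gene is uncertain and the probes of a class are not independent. Of the 29 probes, 2 were called without PRMT6_shRNA2 replicate 2, 12 without PRMT6_shRNA2 replicate 1, 9 without PRMT6_shRNA1 replicate 1, 11 without PRMT6_shRNA1 replicate 2 and 11 without either GFP_shRNA array.

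**Figure D3:**
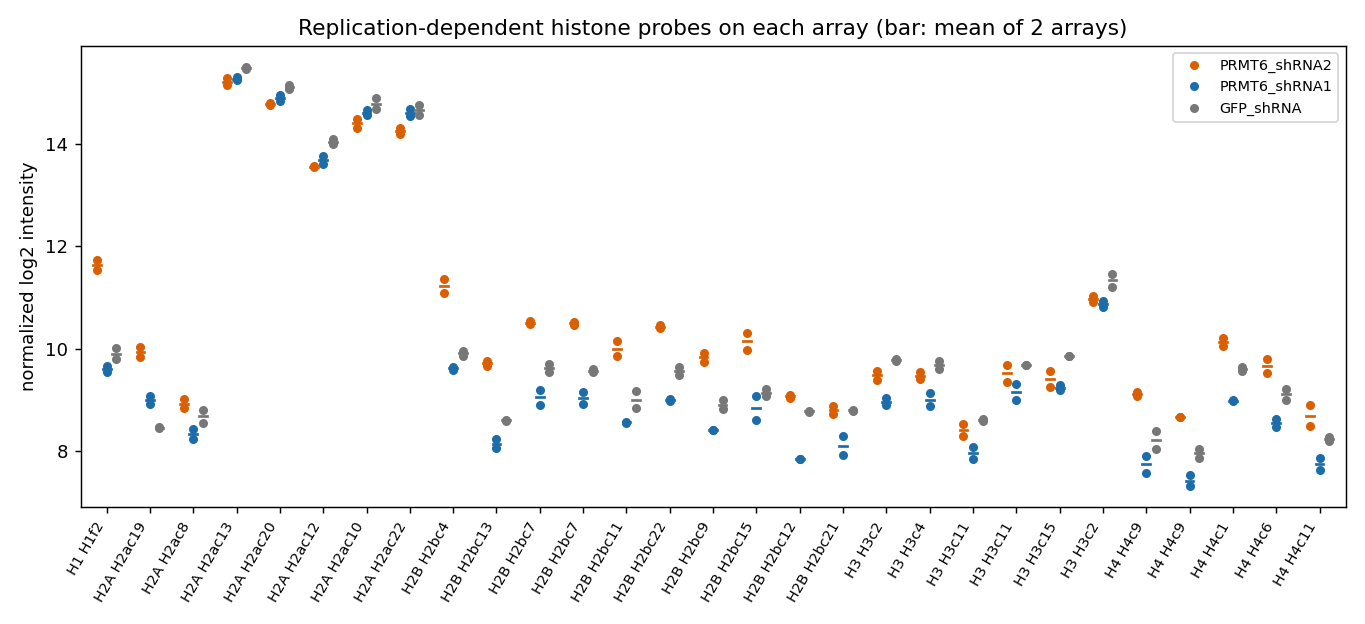
Normalised log2 intensity (vertical axis) of 29 replication-dependent histone probes on each array, ordered by class (H1, H2A, H2B, H3, H4), for PRMT6_shRNA2 (orange), PRMT6_shRNA1 (blue) and GFP_shRNA (grey), with a bar at the mean of 2 arrays. The 10 H2B and 5 H4 probes show orange above blue with the grey mean between their means, for H2bc21 only narrowly. The 5 bright H2A probes, above 13 units, lie at differences of -0.35 to -0.06.

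A probe for 18S ribosomal RNA, named RN18S on the array, had the largest rise of all 5281 probes. It gave 11.16 and 11.25 log2 units with PRMT6_shRNA2, against 8.69 and 8.95 with PRMT6_shRNA1, and 8.81 and 10.03 with GFP_shRNA (2.38 ± 0.37, limma adjusted p = 0.0293). The GFP_shRNA arrays differed from each other by more than 1 unit. It was chosen after its values were seen, as a possible sign of RNA quality, and its part in the histone values was not tested.

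Tcstv3, Pga5 and Ly6a were among the 15 largest named rises. Tcstv3, a gene of the 2-cell embryo and of the rare 2-cell-like state of stem cell cultures, gave 8.35 and 8.74 with PRMT6_shRNA2, against 6.30 and 6.66 with PRMT6_shRNA1, where it was detected on 1 array, and 6.95 and 6.55 with GFP_shRNA (4.19-fold higher, limma adjusted p = 0.0118). AF067061, of the same list, was 4.83-fold higher (2.27 ± 0.19, adjusted p = 0.00486). This list was added after values were seen. Of its 3 measured genes 2 rose, and the third, Eif1a, was at 0.11. Tcstv3 and AF067061 were each detected on 1 PRMT6_shRNA1 array and entered the comparison through PRMT6_shRNA2, where they are high. These 2 rises are therefore no result about the list. Eif1a was detected on all 4 Prmt6 shRNA arrays. Another Tcstv3 probe was detected on no array. Pga5, a pepsinogen, was 4.36-fold higher (adjusted p = 0.0312), but its PRMT6_shRNA1 arrays differed by over 1 unit, at 6.53 and 7.66. Ly6a, the surface antigen Sca-1, gave 9.96 and 9.97 with PRMT6_shRNA2, against 8.09 and 8.44 with PRMT6_shRNA1, and 8.58 and 8.44 with GFP_shRNA (1.71 ± 0.16, adjusted p = 0.00666).

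Igfbp2, which binds insulin-like growth factors, was 3.41-fold higher (adjusted p = 0.0185), the opposite direction from Igf2. Its values were 10.07 and 10.11 with PRMT6_shRNA2, against 8.65 and 7.99 with PRMT6_shRNA1, and 9.19 and 9.30 with GFP_shRNA. Pou3f1, a POU factor of epiblast and neural cells also known as Oct6, was 3.14-fold higher (adjusted p = 0.0372). Fmr1nb, a gene known for expression in testis, was 3.83-fold higher (adjusted p = 0.0228), Gng13, a G protein gamma subunit, 3.43-fold (adjusted p = 0.0236) and Mlana, a melanosomal protein, 2.74-fold (adjusted p = 0.0239). Each of these 4 was detected on both PRMT6_shRNA2 arrays and on 1 PRMT6_shRNA1 array, so the lower level is near the detection limit.

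A few genes of the integrated stress response rose. Of 13 measured genes of the unfolded protein and integrated stress list, 3 rose, 0 fell and 10 did not pass (median 0.16). Chac1, which degrades glutathione, gave 10.48 and 10.63 log2 units with PRMT6_shRNA2, against 9.31 and 9.62 with PRMT6_shRNA1, and 10.75 and 10.69 with GFP_shRNA (2.12-fold higher, limma adjusted p = 0.0229). Its PRMT6_shRNA2 level was thus close to GFP_shRNA. Ddit3, the transcription factor CHOP, gave 10.93 and 10.99 with PRMT6_shRNA2, against 10.14 and 9.63 with PRMT6_shRNA1, and 9.99 and 9.92 with GFP_shRNA (2.11-fold higher, adjusted p = 0.0402). Here PRMT6_shRNA2 stood above both other groups. Herpud1, a component of endoplasmic reticulum degradation, was 1.94-fold higher (adjusted p = 0.0187), whereas Atf4 (-0.38), Asns (-0.01) and Hsp90b1 (-0.02) were not called. Herpud1 was detected on 1 PRMT6_shRNA1 array and entered the comparison through PRMT6_shRNA2. Trib3 was called on its dimmer probe (0.93, adjusted p = 0.024) and not on its brightest (0.44, adjusted p = 0.238).

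In a list of glutathione, xenobiotic and metal response genes, added after values were seen, 4 of 18 rose and 0 fell (median 0.06). The metallothionein Mt1, which binds zinc and copper, gave 14.15 and 14.09 with PRMT6_shRNA2, against 13.23 and 13.08 with PRMT6_shRNA1, and 12.97 and 13.003 with GFP_shRNA (0.96 ± 0.13, limma adjusted p = 0.0187). Mt2 was at 1.22, the glutathione transferase Gsto1 at 1.20 and the epoxide hydrolase Ephx1 at 1.14. Nqo1 (-0.05) and Gclm (0.23), targets of the oxidative stress factor Nrf2, were not called.

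The pluripotency factors were not called in either direction. Of 12 core pluripotency genes 0 passed (median 0.12), and of 11 naive genes 0 passed (median -0.17). Pou5f1, which encodes Oct4, gave 11.75 and 11.63 log2 units with PRMT6_shRNA2, against 11.77 and 11.27 with PRMT6_shRNA1, and its other probe was at -0.33. Sox2 gave 9.42 and 9.27 with PRMT6_shRNA2, against 8.76 and 8.47 with PRMT6_shRNA1, and 9.72 and 9.83 with GFP_shRNA (0.73 ± 0.15, limma adjusted p = 0.0671). Its hairpin arrays did not overlap. Nanog was at -0.96 ± 0.36 on its brightest probe (adjusted p = 0.214), with 11.73 and 11.36 for PRMT6_shRNA2, against 12.15 and 12.85 for PRMT6_shRNA1, but at -0.15 and -0.03 on 2 further probes. Klf4 was at -0.40, -0.76 and -0.67 on 3 probes (adjusted p from 0.0831 to 0.165) and Zfp42, also called Rex1, at -0.46 (adjusted p = 0.241). Cdkn1a, the cell cycle inhibitor p21, was at 0.16 (adjusted p = 0.544), and 0 of 12 p53 targets passed.

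No endoderm gene was called. Of 9 measured genes 0 passed, 8 lay above 0 and the median was 0.50. Gata6, an early endoderm factor, gave 9.92 and 10.14 with PRMT6_shRNA2, against 9.20 and 9.45 with PRMT6_shRNA1, and 8.98 and 9.01 with GFP_shRNA (0.71 ± 0.15, limma adjusted p = 0.0717). Gata4 was at 0.50 (adjusted p = 0.166), Sox17 at 0.71 and Hnf4a at 0.83. The summed normalised level of 7 primitive endoderm markers was 4542 and 4334 with PRMT6_shRNA2, against 2614 and 3571 with PRMT6_shRNA1, and 1849 and 2145 with GFP_shRNA, with Sox7 and Foxa2 detected on no array. The groups did not overlap in this sum.

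Markers of other cell types were summed in the same way. The 7 trophectoderm markers, Krt7 among them, summed to 2116 and 2060 with PRMT6_shRNA2, against 6207 and 6616 with PRMT6_shRNA1, and 1747 and 1713 with GFP_shRNA. Eomes, Elf5 and Hand1 were detected on no array, and Cdx2 and Tfap2c on every array. Gata3 was detected on 1 array of each Prmt6 hairpin and on 0 GFP_shRNA arrays. Without Krt7 the other 6 summed to 1896 and 1784 with PRMT6_shRNA2, against 1869 and 2193 with PRMT6_shRNA1, and 1594 and 1624 with GFP_shRNA. The hairpins then overlapped, so Krt7 alone set this marker sum apart. The 10 fibroblast or feeder markers summed to 856 and 891 with PRMT6_shRNA2, against 729 and 867 with PRMT6_shRNA1, and 737 and 755 with GFP_shRNA. Of these 10, 8 were detected on no array, among them Col1a1, Col1a2 and Col3a1. The embryonic stem cell identity of the line was borne by 6 of 7 markers detected on all arrays, Tdgf1 being undetected, and their sum was 14707 and 14233 with PRMT6_shRNA2, against 16802 and 17483 with PRMT6_shRNA1, and 26915 and 21498 with GFP_shRNA. The hairpins differed in both directions among these 6 markers, none of them called. Nanog was at -0.96 on the summed probe, Zfp42 at -0.46 and Esrrb at -0.03, against Pou5f1 at 0.17, Utf1 at 0.67 and Sox2 at 0.73. Further Nanog probes were at -0.15 and -0.03, and a sum without Nanog was not made. The part of a change in cell types in the keratin and actin values was not tested.

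Most other pathways held no call. No member passed among 23 genes of DNA replication and mitosis (median -0.13), 33 of the respiratory chain (0.08), 28 splicing factors (0.04), 16 of glycolysis and hypoxia (-0.07), 13 of H3K4 methylation (-0.10), 9 Polycomb genes (0.05), 9 other arginine methyltransferases and partners (-0.03), 6 of DNA methylation (-0.04), 10 of cholesterol synthesis (0.04), 17 of lysosome and vesicle membranes (0.07), 10 heat shock proteins (-0.03), 12 of apoptosis (0.10), 7 targets of LIF, Nodal and BMP (0.05), 4 neuroectoderm genes (0.54), 4 of the small RNA machinery (-0.22), 3 fibroblast genes (0.04) and 10 reference genes (-0.01). Of 12 genes of ERK feedback, Plaur was the 1 that passed (median -0.09), and of 5 epithelial junction genes Cldn4 (-0.77). Ago2, the slicing Argonaute that loads small RNAs, was at -0.66, and Dicer1, which cuts hairpins, at -0.10, neither called.

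**Figure D4:**
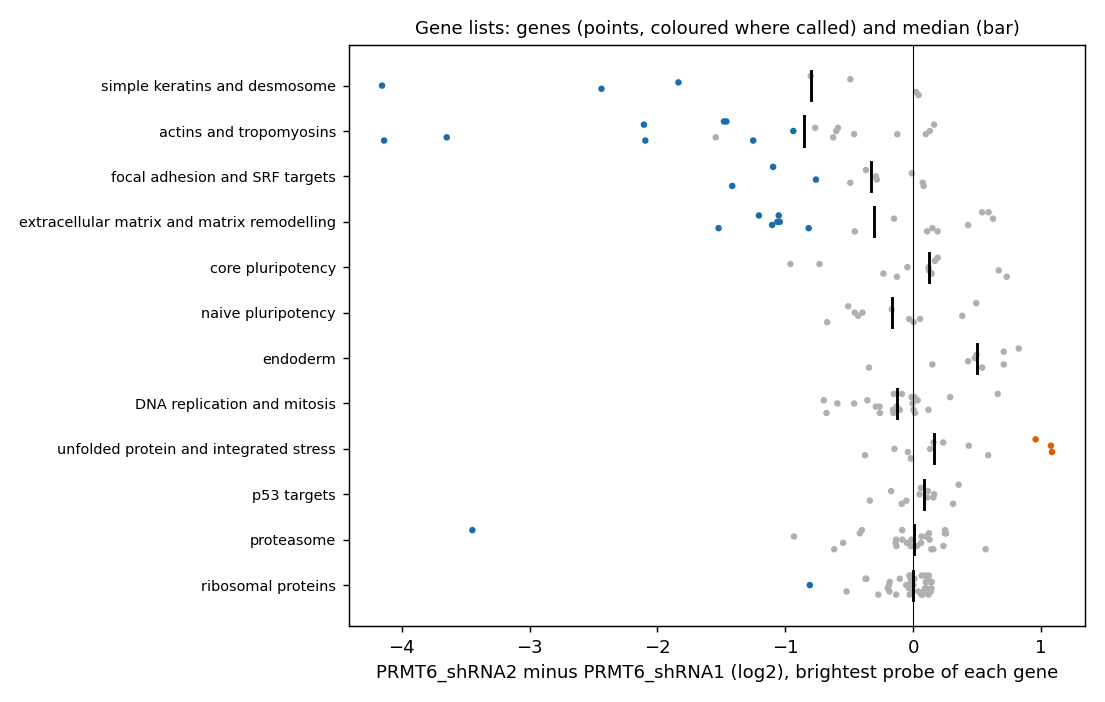
Log2 difference between the hairpins (horizontal axis, PRMT6_shRNA2 minus PRMT6_shRNA1) for each gene, by its brightest probe, in 12 gene lists (vertical axis); blue points were called lower, orange points higher, grey points not called, and the black bar is the list's median. The bars for keratin (-0.80) and actin (-0.85) genes lie left of 0, the endoderm bar lies at 0.50 with 0 genes called, and Psmc1 is the single blue point of the proteasome list.

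The GFP_shRNA mean lay between the hairpins for 45 of the 70 probes called higher (64.3%) and 47 of the 101 called lower (46.5%), beside 32% of all 5281 probes. It lay below both hairpins for 17 of the 70 (24.3%) and 49 of the 101 (48.5%), beside 32.7% of all. Genes of the second kind, lower with PRMT6_shRNA2 but still above GFP_shRNA, included Krt8, Krt18, Cldn4, Plaur and Igf2. Genes of the first kind among the falls, with PRMT6_shRNA2 the lowest group, included Vcl, Phlda2, Fn1 and Ifitm3. These counts carry no test. Called probes have wide gaps between the hairpins, and a wider gap leaves more room for the GFP_shRNA mean inside it. The shares of all 5281 probes are therefore not a like background, and no excess is read from them. The position followed the means without a margin. Psmc1 counted as between, with means of 5.56 for PRMT6_shRNA2 and 5.60 for GFP_shRNA. Flna counted as GFP_shRNA below both, with 9.38 for PRMT6_shRNA2 and 9.36 for GFP_shRNA.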

How the data were processed

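RNA was measured on 6 Illumina mouse bead arrays, 2 a group. Per the file headers, the deposited table holds linear intensity values, already background-subtracted by the authors, each with a detection score, a fraction near 1 for bright probes that was taken as 1 minus the detection p-value. The log2 values deposited by the authors came from lumi, according to the submitters' processing notes. The lumi version and the array build are not given in the sources used here.

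First-series intensities were corrected and quantile-normalised with neqc (offset 16, detection p-values) in limma 3.58.1 under R 4.3.3. Group means over the 6 arrays were estimated by lmFit with eBayes moderation (prior degrees of freedom 3.19, residual 3). P-values are two-sided and adjusted over the 5281 probes; an exact permutation test of 2 arrays against 2 cannot go below p = 0.333. The fit was tested on simulated data. Probe names were matched to RefSeq symbols (GRCm38.p6, names only) for 5073 probes, 1043 of them through a synonym. A gene in a list is given by its brightest probe.

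Of the 5281 probes, 4577 were detected on both arrays of both hairpins and held 97 calls, 47 higher and 50 lower. Another 252 were detected on both arrays of PRMT6_shRNA2 only (23 called, all higher) and 452 on both arrays of PRMT6_shRNA1 only (51 called, all lower); the rule partly sets the direction of these.

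Genes were named by a rule: Prmt6, the 15 largest called differences in each direction whose symbol is not an uncharacterised locus, up to 4 called members of each of 35 lists, and 13 fixed genes. The comparison, the lists and the rule were chosen with earlier results of these data known, and 2 more lists were added later. Deviations of same-numbered arrays correlated at -0.29 for the Prmt6 hairpins, 0.28 for PRMT6_shRNA2 with GFP_shRNA and -0.61 for PRMT6_shRNA1 with GFP_shRNA. These values did not share a direction, and the main fit did not use the replicate number. Whether samples were paired, by number or otherwise, cannot be told from these values or the labels.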

Additional observations from a re-analysis of the deposited data

How the results depend on the processing

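All of the 171 called differences that an alternative tested kept their sign, but the counts moved. Against 171 calls (70 higher, 101 lower) and 34 called genes of the 35 lists, the authors' log2 values gave 317 (146 and 171), probes detected on all 4 Prmt6 shRNA arrays 99 (46 and 53, among 4577 probes), probes of both series detected on 2 of 6 arrays 3 (0 and 3, with 2 list genes), all first-series probes 20 (5 and 15, with 7 list genes) and the 4 Prmt6 shRNA arrays alone 45 (17 and 28, with 13 list genes). The fit on 4 arrays and the less strict filters use fewer samples or test more probes by construction. With the replicate number as a block there were 35 calls (12 and 23, with 10 list genes). Same-numbered Prmt6 shRNA arrays deviated oppositely, and the crossed pairing, added after seeing the data, gave 314 calls (125 and 189). Leaving out 1 array gave 14 to 133 calls, 2 to 35 higher, 12 to 110 lower and 6 to 22 list genes, the lone array being assumed to vary like the other groups. The CArG share in lower genes was 2.17% with detection on all 4 arrays and 33.3% of the 3 genes called with both series. With 1 array left out Cdx2 ranged from -0.78 to 0.071, above 0 without PRMT6_shRNA1 replicate 1, and Pou5f1 from -0.084 to 0.42, below 0 without PRMT6_shRNA1 replicate 2; neither was called. Calls of named genes were lost most often with both series on 2 of 6 arrays (45 genes), without a filter (36), without PRMT6_shRNA2 replicate 2 (35) and with the replicate block (25). The cause of these moves was not tested. With both series normalised together (149 calls), without further background correction (152), with 1 probe a gene (163), array weights (121) or an intensity trend (157) the count stayed within 1.5 times. A chip block was not run, since the headers name no chips.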

Other observations

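Second-series probes, which include both Prmt6 probes, were tested together with first-series probes in an alternative fit that required detection on 2 of the 6 arrays. Of 2286 second-series probes 0 were called by limma in that fit of 9138 probes, in which 926 probes of either series had an unadjusted p under 0.05 and 3 were called.

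Some called genes that no list held and the naming rule passed over are given here as single values, chosen after those values were seen, with no statement on a group. Capg, which caps actin filaments, was 3.51-fold lower with PRMT6_shRNA2 (limma adjusted p = 0.00888), the formin Fhod1 2.26-fold (adjusted p = 0.0143), the membrane linker Msn 2.29-fold (adjusted p = 0.0447) and the actin bundler Fscn1 1.63-fold (adjusted p = 0.0415). Slc40a1, the iron exporter ferroportin, was 3.57-fold lower (adjusted p = 0.0198). Of the rises, Foxq1, a forkhead factor, was 2.31-fold higher (adjusted p = 0.0155), Car2, a carbonic anhydrase, 1.98-fold (adjusted p = 0.0236), Ccnd2, a cyclin of G1 phase, 1.91-fold (adjusted p = 0.0439) and Tex19.1, a germline gene that stem cells also express, 1.69-fold (adjusted p = 0.0384). LOC633057, an uncharacterised locus, was the brightest called rise, with 14.70 and 14.79 log2 units for PRMT6_shRNA2, against 13.04 and 12.82 for PRMT6_shRNA1 (adjusted p = 0.0044).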
